A study of Mus musculus with 6 samples.

Results

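The genes described here encode the enzymes that make cholesterol and fatty acids, the transcription factor system that controls them, and 3 proteins that move sterols. They were chosen by name, 34 genes of the 18193 that have a probe set for 1 gene on the arrays. Of the 34, 33 had such a probe set. Acat2, the cytosolic thiolase that starts the mevalonate pathway, was not analysed here. All 33 passed the filter on dim signals, each on all 6 arrays at the probe set that stands for it, so none entered through 1 group alone. They were measured by 77 probe sets, of which 65 were tested.

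The cells were dermal fibroblasts grown from mouse skin, and each of 6 cultures was read on 1 Affymetrix array. In 3 cultures the cells had received 5-aza-2'-deoxycytidine (decitabine), a nucleoside that cells incorporate into their DNA, where it captures the enzymes that methylate cytosine, and 3 untreated cultures were the controls. Treated cultures had the drug at 5 µM, renewed each 24 hours over 96 hours, and then 24 hours without it. Both groups came from the dermis of B6 mice of mixed sex aged 0 to 2 days, came from an explant of their own per replicate, and were used at passage 4 in medium with 10% serum. The labels do not say whether a treated and a control culture of 1 number share an explant.

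Cholesterol is built from acetyl-CoA through mevalonate, farnesyl diphosphate, squalene and lanosterol. Fatty acids are built from the same acetyl-CoA and are then elongated and desaturated. When sterols in the endoplasmic reticulum are low, the escort protein SCAP carries the precursors of SREBP transcription factors to the Golgi, where they are cut and released. When sterols are abundant, INSIG proteins hold the complex back. SREBP2, from Srebf2, is known for driving the sterol genes, and SREBP1, from Srebf1, for driving the fatty acid genes. Serum in the medium supplies cells with lipoprotein cholesterol.

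Signals are MAS5 values on a linear scale, brought to a common mean. Log2 changes are treated minus control on the scale log2(signal + 9.66), tested with limma across 23388 probe sets, and an adjusted p under 0.05 is called. Arrays of 1 group correlated at 0.972 to 0.974, and a treated with a control array at 0.863 to 0.883. For Actb, the signal at the 3' end over that at the 5' end, which reads RNA integrity, was 1.141 to 1.179 in treated cultures and 1.255 to 1.275 in controls. A two-sided exact permutation test gave p = 0.1, as low as 3 against 3 can go. Its part in the results below was not tested. The summed signal of 13 fibroblast markers was 35570 to 42350 in treated cultures and 66750 to 73010 in controls, and Vim averaged 11250 in treated cultures and 10230 in controls. Of these 13 genes, 10 fell and 1 rose, while 21.6% of all genes tested were called lower and 19.5% higher. Vim was not called. Pdgfra averaged 378 in treated cultures and 3477 in controls, and S100a4, the gene that rose, 7341 and 4442. In a culture measured as a whole, fewer cells of a kind and less RNA per cell cannot be told apart.

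Most of these lipid genes fell. Of the 33 measured, 26 were called lower and 2 higher in treated cultures, while over all 12194 genes tested 21.6% were called lower and 19.5% higher. The median log2 change of the 33 was -0.90, against 0.00 over all genes tested. In 27 of the 33 all 3 treated arrays lay below all 3 control arrays, which was so for 27.4% of all genes. In the 26 that fell, treated signals averaged 27.7% to 81.8% of control signals. The genes that fell were 15 of the 16 measured sterol enzymes, all 6 enzymes that elongate and desaturate fatty acids, and 5 genes of regulation and transport. The other sterol enzyme, Sc5d, was called higher, the probe sets of Hsd17b7, counted as lower, were called in both directions, and the 3 enzymes that make palmitate from citrate were not called. The choice of the members was made with earlier results of these data known, so these counts describe them and test nothing about the list.

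**Figure D1:**
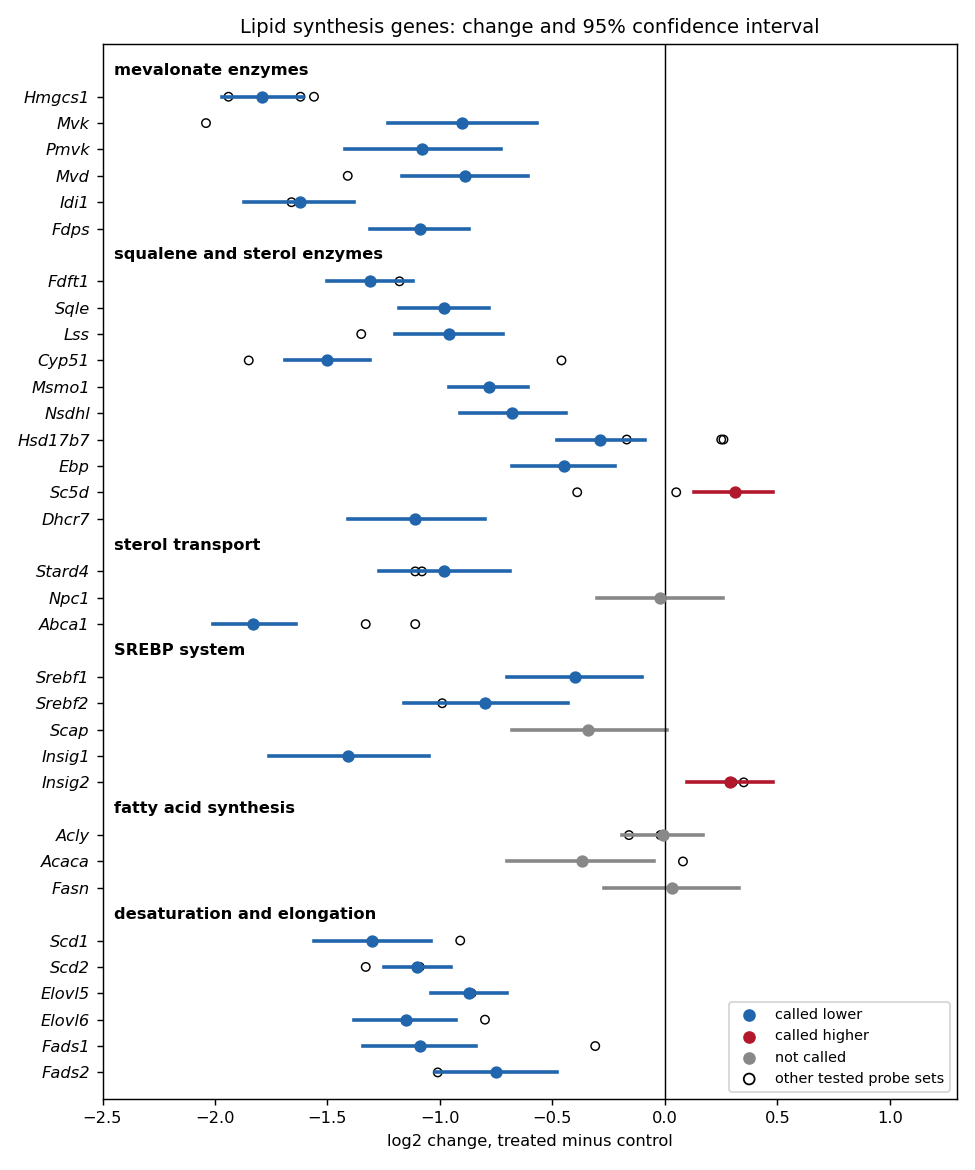
Log2 change (treated minus control) of the 33 measured genes, grouped by role. Filled points are the probe set that stands for the gene, bars are its 95% confidence interval (limma, n = 3 treated and 3 control arrays), and open circles are the gene's other tested probe sets. Mevalonate enzymes and desaturation and elongation enzymes all lie left of 0, while Acly and Fasn lie at 0.

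The 6 measured enzymes of the mevalonate pathway all fell, with a median log2 change of -1.08. Hmgcs1, the synthase that condenses acetyl-CoA with acetoacetyl-CoA, had signals of 1104, 1151 and 1022 on the treated arrays, against 3637, 4045 and 3718 on the control arrays. Every treated array lay below every control array, and the spread within each group was small beside the gap. The log2 change was -1.79 ± 0.080 (SE; limma adjusted p = 3.96e-07). The suffix of its representing probe set warns that its probes may also match other transcripts, but the gene's 3 other tested probe sets changed by -1.94, -1.62 and -1.56.

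Idi1, the isomerase that turns isopentenyl diphosphate into the primer for chain building, had signals of 385, 469 and 356 in treated cultures, against 1280, 1270 and 1211 in controls. The groups did not overlap, and the change was -1.62 ± 0.11 (SE; limma adjusted p = 4.3e-06). Fdps, which builds farnesyl diphosphate, averaged 1179 ± 62.8 in treated cultures and 2528 ± 301 in controls (SD, n = 3 each), a change of -1.09. Pmvk, the phosphomevalonate kinase, changed by -1.08, Mvk, the mevalonate kinase, by -0.90, and Mvd, the decarboxylase that yields isopentenyl diphosphate, by -0.89. A dimmer probe set of Mvk gave -2.04 and a dimmer one of Mvd gave -1.41, so the size of the fall differed between probes of a gene while the direction did not.

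The next 10 enzymes carry farnesyl diphosphate through squalene and lanosterol to cholesterol. Of these, 9 fell and 1 rose, with a median log2 change of -0.87. Cyp51, the demethylase that acts on lanosterol, had signals of 588, 565 and 515 in treated cultures, against 1629, 1593 and 1540 in controls. The groups were far apart, at a change of -1.50 ± 0.083 (SE; limma adjusted p = 1.28e-06). A second probe set of Cyp51 gave -1.85, and the dimmest gave -0.46 and was not called (adjusted p = 0.199).

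Fdft1, squalene synthase and the first enzyme committed to sterols, averaged 433 ± 29.1 in treated cultures and 1087 ± 29.4 in controls (SD, n = 3 each), a change of -1.31. This probe set carries the same warning suffix as that of Hmgcs1, and the other tested probe set of Fdft1 changed by -1.18. Dhcr7, which carries out the last reduction to cholesterol, averaged 112 ± 11.8 in treated cultures and 252 ± 23.1 in controls, a change of -1.11. Sqle, the squalene epoxidase, changed by -0.98 and Lss, which closes the sterol rings, by -0.96. The demethylation enzymes Msmo1 and Nsdhl changed by -0.78 and -0.68, and the sterol isomerase Ebp by -0.45. All these genes fell, and each change was smaller than that of Cyp51.

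Hsd17b7 and Sc5d stood apart from the other sterol enzymes. Hsd17b7, a reductase of the demethylation complex, had signals of 440, 453 and 489 in treated cultures, against 542, 568 and 579 in controls. This brightest probe set was called lower (-0.29 ± 0.088, SE; limma adjusted p = 0.0293) and carries the same warning suffix. Its call ended without treated replicate 1 or 2 or control replicate 2 or 3 (adjusted p from 0.0656 to 0.0985). Another probe set of the gene was called higher (0.26, adjusted p = 0.0466), and the other two changed by 0.25 and -0.17 without passing, so the probe sets of Hsd17b7 give no common direction.

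Sc5d, the sterol desaturase that acts just before Dhcr7, was the sole sterol enzyme called higher at its representing probe set. Its signals were 1215, 1155 and 1157 in treated cultures, against 998, 957 and 893 in controls. The groups did not overlap and the change was 0.31 ± 0.079 (SE; limma adjusted p = 0.0127). The rise rests on this probe set: the other two tested changed by 0.05 (adjusted p = 0.834) and -0.39 (adjusted p = 0.114).

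**Figure D2:**
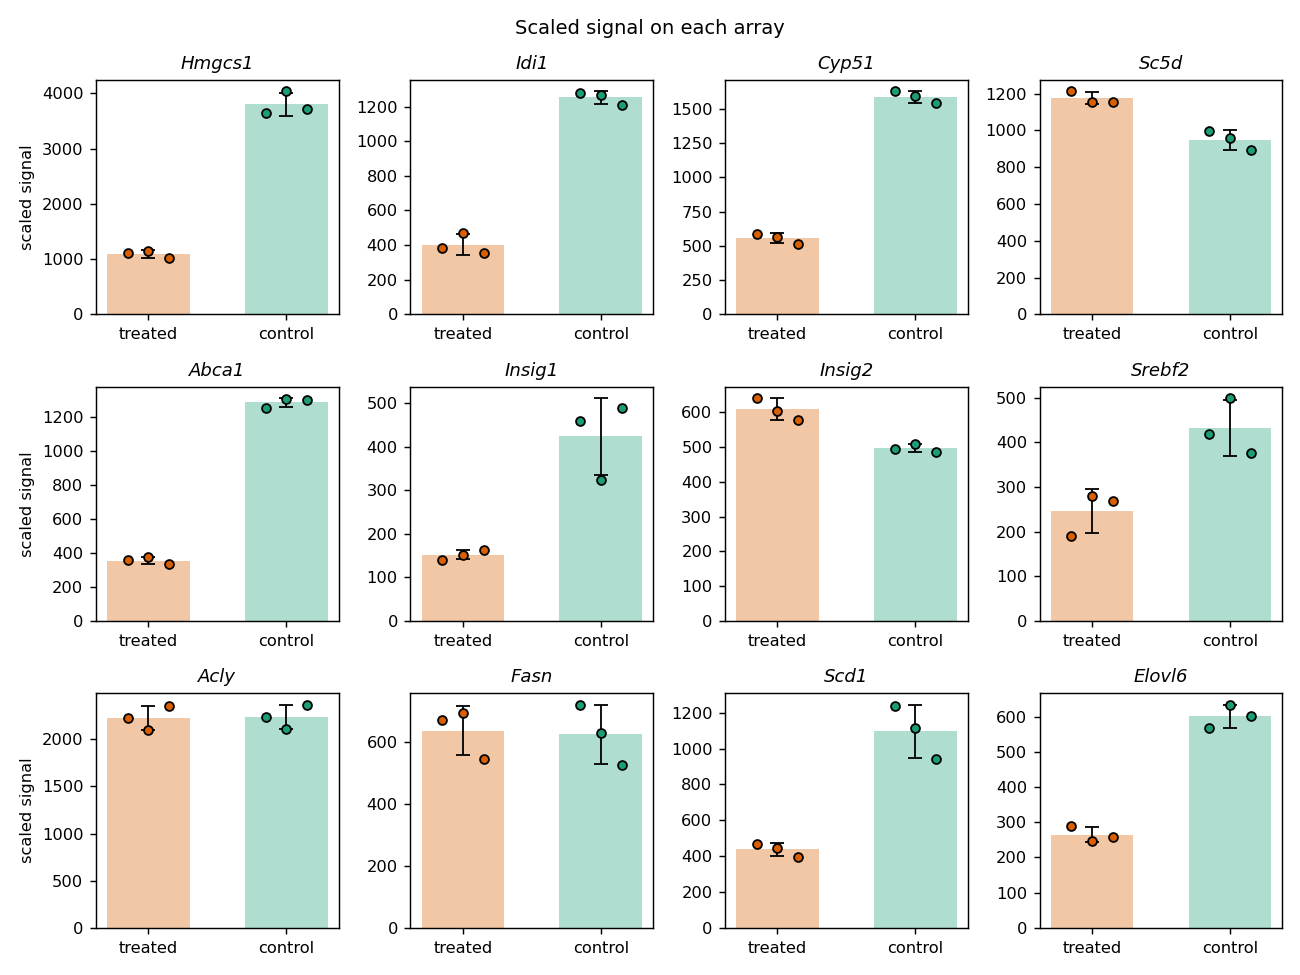
Scaled signal (linear axis from 0) of 12 genes on each array, treated left of control. Bars are means, error bars are SD (n = 3 cultures each) and points are the arrays. Hmgcs1, Idi1, Cyp51, Abca1, Insig1, Srebf2, Scd1 and Elovl6 are lower on every treated array, Sc5d and Insig2 are higher on every treated array, and the arrays of Acly and Fasn overlap.

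SREBP factors bind sterol regulatory elements in promoters together with NF-Y, which binds the CCAAT box, or with Sp1, which binds GC boxes. Promoter windows from 250 bases before to 50 after the annotated start, from RefSeq (GRCm38.p6), were found for 26 of the 34 genes, 34 windows in all. They were searched on both strands for TCACNCCAC, a spelling of the sterol regulatory element, for CCAAT and for GGGCGG. The windows of the 3 sterol enzymes with the largest falls at their representing probe sets that the table holds are shown 5′ to 3′ with matches to TCACNCCAC and CCAAT, or its reverse complement ATTGG, in capitals. They lie at chr13:119690101-119690400 (Hmgcs1, plus strand), chr13:8885356-8885655 (Idi1, plus strand) and chr5:4104648-4104947 (Cyp51, minus strand).
Hmgcs1: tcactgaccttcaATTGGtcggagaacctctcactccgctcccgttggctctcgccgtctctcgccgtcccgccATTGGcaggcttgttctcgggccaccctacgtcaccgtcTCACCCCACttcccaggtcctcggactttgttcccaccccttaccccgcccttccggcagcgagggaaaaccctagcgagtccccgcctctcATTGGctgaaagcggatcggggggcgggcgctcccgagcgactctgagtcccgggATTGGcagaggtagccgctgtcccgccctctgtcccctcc
Idi1: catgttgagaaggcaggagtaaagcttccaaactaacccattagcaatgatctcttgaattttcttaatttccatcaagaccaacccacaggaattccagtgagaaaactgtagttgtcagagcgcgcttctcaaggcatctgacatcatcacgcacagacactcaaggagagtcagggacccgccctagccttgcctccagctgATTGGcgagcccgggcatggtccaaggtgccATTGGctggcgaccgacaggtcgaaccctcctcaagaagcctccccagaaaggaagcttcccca
Cyp51: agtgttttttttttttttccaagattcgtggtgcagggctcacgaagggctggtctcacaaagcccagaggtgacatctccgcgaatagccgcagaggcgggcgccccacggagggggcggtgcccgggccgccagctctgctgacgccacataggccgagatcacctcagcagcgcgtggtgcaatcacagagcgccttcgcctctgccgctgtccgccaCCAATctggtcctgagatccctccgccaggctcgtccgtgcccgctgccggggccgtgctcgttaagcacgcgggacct

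TCACNCCAC occurred in 1 of the 26 genes, Hmgcs1, at bases -137 to -129 from the start, and in 1.48% of the genes tested that have a window in the table. CCAAT occurred in any window of 13 of the 14 sterol enzymes that have one, against 42.6% of the genes tested. Hmgcs1 held it at 4 places and Mvk at 5. The sterol enzyme without it was Acat2, and Sc5d, which was called higher, held it. GGGCGG occurred in 13 of the 14 sterol enzymes too, against 66.8% of the genes tested. Of the 6 fatty acid genes with a window, 3 held CCAAT (Acly, Fasn and Elovl5) and 2 held GGGCGG. In Fasn, 2 CCAAT matches on opposite strands overlap by 2 bases. A match is a run of letters and was not tested for binding. Other spellings of the sterol regulatory element were not searched, so a window without TCACNCCAC may still hold such an element.

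**Figure D3:**
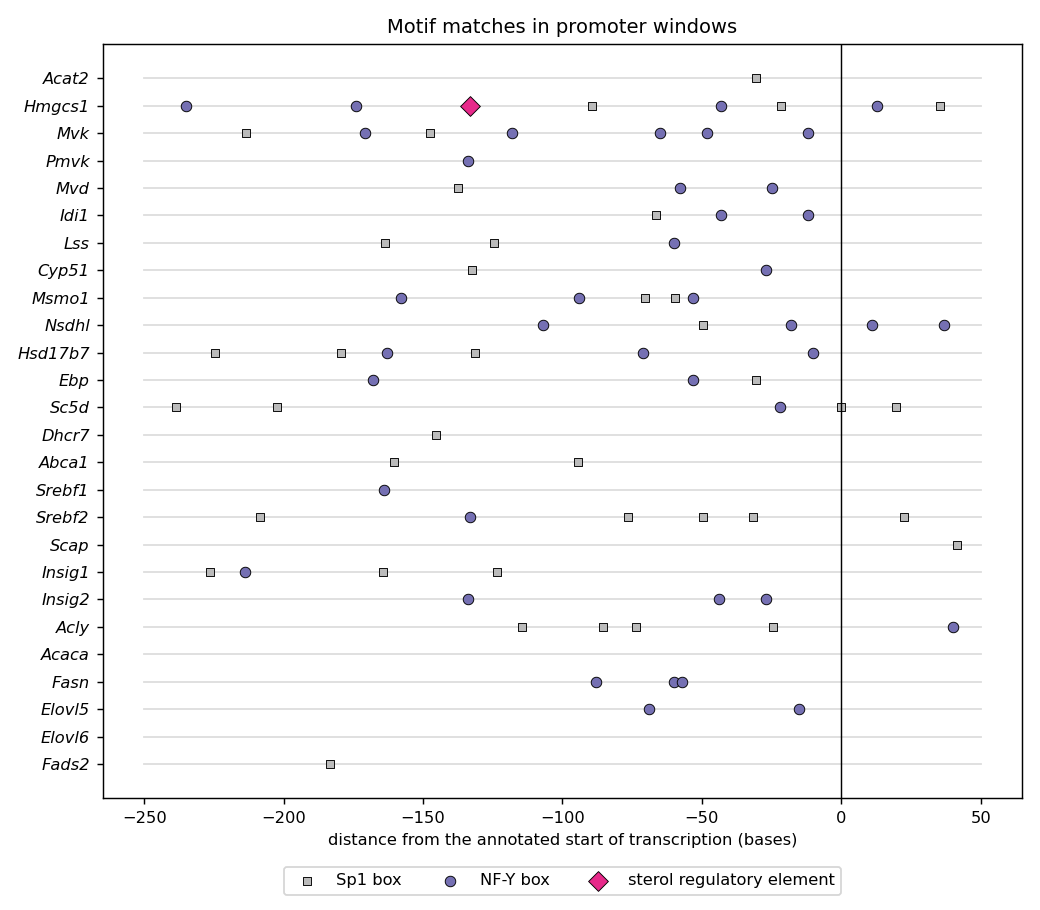
Positions of exact matches to TCACNCCAC (a spelling of the sterol regulatory element), CCAAT (NF-Y box) and GGGCGG (Sp1 box) on either strand, for the first window listed of each of 26 genes. The horizontal axis is the distance in bases from the annotated start, from 250 before to 50 after. TCACNCCAC occurs in Hmgcs1 alone among these windows, and CCAAT in most sterol enzymes. Elovl6 and Acaca hold none of the 3.

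Of the SREBP system itself, 3 genes fell, 1 rose and 1 was not called. Insig1, whose protein retains SREBP in the endoplasmic reticulum and whose gene is a known SREBP target, had signals of 141, 152 and 162 in treated cultures, against 460, 323 and 489 in controls. The control arrays were uneven, yet the lowest of them was far above every treated array (log2 change -1.41 ± 0.16, SE; limma adjusted p = 0.000111). Insig2, the related retention protein that is known to be less dependent on SREBP, had signals of 641, 604 and 578 in treated cultures, against 493, 508 and 486 in controls. Here all treated arrays were higher, by 0.29 ± 0.086 (SE; adjusted p = 0.0246). Its other two probe sets changed by 0.35 (adjusted p = 0.0515) and 0.30 (adjusted p = 0.0701), and leaving out treated replicate 1 or 2, or control replicate 1 or 3, ended the call (adjusted p from 0.051 to 0.0937).

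The windows of both INSIG genes are shown because the genes were called in opposite directions, with CCAAT or ATTGG in capitals. They lie at chr5:28071162-28071461 (Insig1, plus strand) and chr1:121332540-121332839 (Insig2, minus strand, the first of 3 windows listed for that gene). Insig1 has 1 match and this window of Insig2 has 3, and neither holds TCACNCCAC. The other windows listed for Insig2 hold GGGCGG and no CCAAT.
Insig1: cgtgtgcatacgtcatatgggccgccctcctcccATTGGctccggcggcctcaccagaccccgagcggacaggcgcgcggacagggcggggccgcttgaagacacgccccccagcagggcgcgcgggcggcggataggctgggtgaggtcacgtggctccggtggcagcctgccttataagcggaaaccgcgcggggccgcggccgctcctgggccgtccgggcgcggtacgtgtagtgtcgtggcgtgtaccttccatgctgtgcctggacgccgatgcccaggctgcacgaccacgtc
Insig2: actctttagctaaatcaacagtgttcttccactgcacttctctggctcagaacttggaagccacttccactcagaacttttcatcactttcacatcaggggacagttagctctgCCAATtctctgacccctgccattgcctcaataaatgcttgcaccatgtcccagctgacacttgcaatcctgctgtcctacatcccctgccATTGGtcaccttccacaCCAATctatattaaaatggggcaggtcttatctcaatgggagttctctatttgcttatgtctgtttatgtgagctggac

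Srebf2, which encodes SREBP2, had signals of 191, 280 and 268 in treated cultures, against 419, 500 and 377 in controls. The groups did not overlap, and the change was -0.80 ± 0.16 (SE; limma adjusted p = 0.0037), with -0.99 at a second probe set. Srebf1, which encodes SREBP1, had signals of 323, 412 and 362 in treated cultures, against 414, 557 and 487 in controls. The highest treated array nearly reached the lowest control array, and the call of Srebf1 (-0.40 ± 0.13, SE; adjusted p = 0.0408) was lost without treated replicate 1 or 3 or control replicate 2 or 3 (adjusted p from 0.0882 to 0.14). Scap, the escort protein, changed by -0.34 ± 0.15 (adjusted p = 0.113) with a 95% confidence interval from -0.68 to 0.01. With 1 array left out its change ran between -0.48 (adjusted p = 0.037, without treated replicate 3) and -0.20 (adjusted p = 0.341, without treated replicate 1), and it passed in the first of these fits alone.

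Of the 3 sterol transport genes, 2 fell and 1 was not called. Abca1, which pumps cholesterol out of the cell and is a known target of the oxysterol receptor LXR rather than of SREBP2, had signals of 359, 374 and 335 in treated cultures, against 1255, 1307 and 1298 in controls. The groups were far apart, at a change of -1.83 ± 0.083 (SE; limma adjusted p = 4.31e-07), with -1.33 and -1.11 at its dimmer probe sets. Stard4, a cytosolic sterol carrier and known SREBP2 target, averaged 210 ± 31.9 in treated cultures and 421 ± 31.1 in controls (SD, n = 3 each), a change of -0.98, with -1.08 and -1.11 at its other probe sets. Npc1, which releases cholesterol from lysosomes, had signals of 181, 171 and 156 in treated cultures, against 177, 165 and 173 in controls. The groups overlapped, and the confidence interval of its change, -0.30 to 0.26, leaves room for small shifts either way (adjusted p = 0.921).

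Among the 9 fatty acid genes, 6 fell, 0 rose and 3 were not called, with a median log2 change of -0.87, beside 15 that fell and 1 that rose among the 16 measured sterol enzymes (median -0.97). The genes not called were those that make palmitate. Acly, which splits citrate into acetyl-CoA, had signals of 2228, 2095 and 2349 in treated cultures, against 2239, 2110 and 2366 in controls. The groups overlapped almost completely, and the confidence interval of the change ran from -0.19 to 0.17 (limma adjusted p = 0.939). This probe set carries the warning suffix described for Hmgcs1. The other tested probe sets of Acly changed by -0.02 and -0.16 and were not called. Fasn, the synthase that assembles palmitate, had signals of 670, 693 and 545 in treated cultures, against 718, 630 and 525 in controls. These overlapped too, with an interval from -0.27 to 0.33 (adjusted p = 0.881).

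Acaca, the carboxylase that makes malonyl-CoA, had signals of 218, 165 and 163 in treated cultures, against 264, 231 and 218 in controls. The highest treated and the lowest control array were level at the digits shown, and the change of -0.37 ± 0.15 (SE; limma adjusted p = 0.0706) was not called. It passed without treated replicate 1 (-0.50, adjusted p = 0.0266) and in none of the other 5 fits that leave out 1 array (-0.30, adjusted p = 0.204, without control replicate 1), while a second, dimmer probe set changed by 0.08 (adjusted p = 0.786). The window of Fasn, a textbook SREBP target that was not called, lies at chr11:120824498-120824797 on the minus strand and is shown with its 3 CCAAT or ATTGG matches in capitals.
Fasn: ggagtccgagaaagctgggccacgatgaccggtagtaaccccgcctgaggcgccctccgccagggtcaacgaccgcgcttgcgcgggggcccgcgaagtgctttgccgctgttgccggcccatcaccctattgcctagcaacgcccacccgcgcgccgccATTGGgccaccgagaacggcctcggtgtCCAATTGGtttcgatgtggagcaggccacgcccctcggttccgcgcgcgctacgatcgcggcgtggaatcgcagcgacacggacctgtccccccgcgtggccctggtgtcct

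The 6 enzymes that elongate or desaturate fatty acids after their synthesis were all called lower, with a median log2 change of -1.09. Scd1, the stearoyl-CoA desaturase that makes oleate, had signals of 471, 445 and 398 in treated cultures, against 1235, 1117 and 941 in controls. The groups were well apart, at -1.30 ± 0.12 (SE; limma adjusted p = 2.55e-05). Scd2, its paralogue, averaged 3309 ± 119 in treated cultures and 7095 ± 90.4 in controls (SD, n = 3 each), a change of -1.10, with -1.09 and -1.33 at its other probe sets.

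Elovl6, which elongates palmitate to stearate, had signals of 288, 248 and 259 in treated cultures, against 567, 633 and 603 in controls. Every treated array was under the lowest control array, a change of -1.15 ± 0.10 (SE; limma adjusted p = 2.21e-05). Elovl5, the elongase of polyunsaturated fatty acids, averaged 859 ± 21.7 in treated cultures and 1578 ± 53.7 in controls (SD, n = 3 each), a change of -0.87. Fads1 and Fads2, the desaturases of polyunsaturated fatty acids, changed by -1.09 and -0.75. A dimmer probe set of Fads1 changed by -0.31 and was not called (adjusted p = 0.198).

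Fads2 lies between Fads1 and Fads3 on chromosome 19 in the order of protein-coding genes. Fads3, another member of the family, rose instead: it averaged 806 in treated cultures and 435 in controls, a change of 0.89 ± 0.14 (SE; limma adjusted p = 0.000835). The 3 neighbouring genes were thus called in both directions.

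On each array the mean log2 level of the 6 desaturation and elongation genes was -1.01, -1.09 and -1.03 relative to the control mean in treated cultures, while that of the 3 palmitate genes was 0.00, -0.14 and -0.21. Control arrays of the palmitate genes lay between -0.09 and 0.12, so that treated and control arrays overlapped for these 3 genes. For the 6 mevalonate enzymes the treated arrays lay at -1.18, -1.16 and -1.35. The difference between these groups of genes was not tested, since genes are not replicates.

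**Figure D4:**
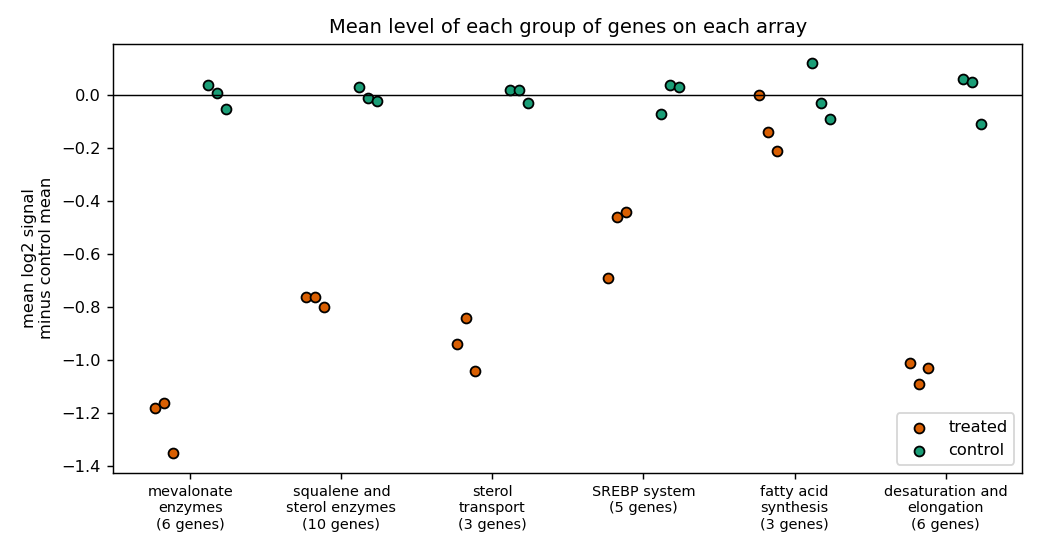
Mean log2 signal of each group of genes on each array, minus the mean of the 3 control arrays (treated left of control, 1 point per array). Treated arrays lie below control arrays in all groups but fatty acid synthesis, where the 3 treated arrays (0.00 to -0.21) overlap the controls (0.12 to -0.09).

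Where a gene had several tested probe sets, they mostly moved together. Of the 17 genes called lower with more than 1 tested probe set, all tested probe sets were called lower in 14. The exceptions were Cyp51, Hsd17b7 and Fads1, described above. Of the genes not called lower, Sc5d (0.31, 0.05 and -0.39) and Acaca (-0.37 and 0.08) had tested probe sets that changed in both directions. Those of Insig2 all rose, with 1 called, and those of Acly were not called. In all, 46 of the 65 tested probe sets were called lower and 3 higher. Of all 23388 probe sets tested, 9040 were called in either direction. The 12 untested probe sets were dim, with control means of at most 50.1.

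Other genes of lipid metabolism, listed by hand by their role, are given for comparison. Of 109 such genes, 86 were tested, 27 fell and 21 rose, with a median log2 change of -0.07, beside 21.6% called lower and 19.5% called higher over all genes tested. The lists below are short, and their counts are to be read against these shares. Of the 86, Lpin3, Gramd1c and Elovl4 exceeded the array median on treated arrays alone, so they passed the filter only through the group in which they are high. Of 5 tested genes listed for sterol synthesis and uptake, 4 fell and 0 rose (median -0.97). Tmem97, a membrane protein that binds sterols, changed by 0.08 (limma adjusted p = 0.729). Those that fell were Acat1, the mitochondrial acetoacetyl-CoA thiolase (-1.40 ± 0.11, SE), Tm7sf2 and Lbr, which share the sterol reductase activity after Cyp51 (-1.20 and -0.73), and Erg28, a scaffold of the demethylation complex (-0.97). Acat1 is not the cytosolic thiolase that starts the mevalonate pathway, so its fall is not that of a step of this pathway.

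Genes that branch from farnesyl diphosphate toward other isoprenoids mostly did not pass. Of 8 tested, 1 fell and 1 rose: Dhdds, a subunit of the enzyme for dolichol synthesis, changed by -0.58 and Coq2, an enzyme of ubiquinone synthesis, by 0.45. Pdss2, of ubiquinone synthesis, and Fnta, a subunit of protein prenyltransferases, changed by -0.28 and -0.14 without passing. Ggps1, which makes geranylgeranyl diphosphate, changed by 0.16 (limma adjusted p = 0.328). Of 10 genes of SREBP processing and turnover, 2 fell and 3 rose. Mbtps1, the protease that makes the first cut in SREBP, changed by -0.40 and the ubiquitin ligase Rnf139 by -0.65, while Erlin2, a lipid raft protein of the endoplasmic reticulum, and Pgrmc1, a heme-binding membrane protein, rose by 0.43 and 0.31. Mbtps2, the protease of the second cut, changed by -0.01 (adjusted p = 0.927).

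Of the 5 tested genes of LXR and sterol efflux, 1 fell and 1 rose, and they went different ways. Mylip, an LXR target that marks lipoprotein receptors for degradation, averaged 241 in treated cultures and 900 in controls, a change of -1.85 ± 0.11 (SE; limma adjusted p = 2.27e-06). Abcg1, an efflux pump and like Abca1 an LXR target, changed by 0.44 (adjusted p = 0.0448), opposite in sign to Abca1. Lpcat3, which remodels phospholipids, and Scarb1, a lipoprotein receptor, changed by 0.26 and -0.27 and did not pass (adjusted p = 0.0537 and 0.12). The 3 oxysterol genes were called in both directions. Cyp7b1, the hydroxylase that clears oxysterols, averaged 45.9 in treated cultures and 573 in controls (-3.40 ± 0.18, SE), Hsd3b7, which acts after it, changed by -0.57, and Ch25h, which makes an oxysterol from cholesterol, rose by 0.94 ± 0.16.

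Genes that handle sterols in lysosomes and between membranes gave 4 lower and 2 higher of 11. Npc2, the partner of Npc1 in lysosomes, rose by 0.38, Lipa, the lysosomal esterase, fell by 0.49, and the sterol exchange protein Osbp and its relative Osbpl8 fell by 0.42 and 0.65. Gramd1c, of a family of sterol transfer proteins and counted among the 2 higher, averaged 125 in treated cultures and 7.25 in controls. The control level lay under the array median and the pseudocount, so no size is given for its change.

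Of 9 tested genes that supply fatty acid synthesis, 2 fell and 2 rose, shares near those over all genes. Acss2, which makes acetyl-CoA from acetate and is a known SREBP target, changed by -1.15 ± 0.14 and Acsl3, an acyl-CoA synthetase, by -1.08 ± 0.13 (SE). Me1, the malic enzyme that provides NADPH, averaged 1365 in treated cultures and 484 in controls, a change of 1.48 ± 0.11, and Acsl4, an acyl-CoA synthetase for arachidonate, rose by 0.55. Slc25a1, the citrate carrier that feeds Acly, changed by 0.00 (limma adjusted p = 0.997). Among 11 other desaturases and elongation enzymes 3 fell and 4 rose, counting Elovl4, which passed the filter through treated arrays alone. Hacd1 (1.00) and Hsd17b12 (0.81), which carry out later steps of the elongation cycle, rose along with Fads3, while the related Hacd2 fell (-0.76).

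Of 11 genes of glycerolipid synthesis, 6 rose and 2 fell, with a median of 0.33. Gpam, the acyltransferase of the first step and a known SREBP1 target, fell (-0.79 ± 0.091, SE), while the acyltransferases Agpat1 (0.86) and Agpat5 (0.42) rose. The phosphatidate phosphatase Lpin3, counted among the 6, had signals of 143, 179 and 123 in treated cultures, against 24.4, 11.8 and 41.9 in controls, all under the array median, so no size is given for its change. Plin2, which coats lipid droplets, is not in this list but among the sebocyte markers below, and it rose. Its signals were 4518, 3780 and 3982 in treated cultures, against 1065, 1145 and 1165 in controls (1.85 ± 0.087, SE; limma adjusted p = 5.02e-07). Of 13 tested genes of fatty acid oxidation, 6 fell and 1 rose. Cpt1a and Cpt2, which pass acyl groups into mitochondria, changed by -0.65 and -0.91, and Acadm and Hadh, enzymes of the oxidation cycle, by -0.37 and -0.58. Acadvl, which starts the cycle on very long chains, was the 1 that rose (0.51).

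**Figure D5:**
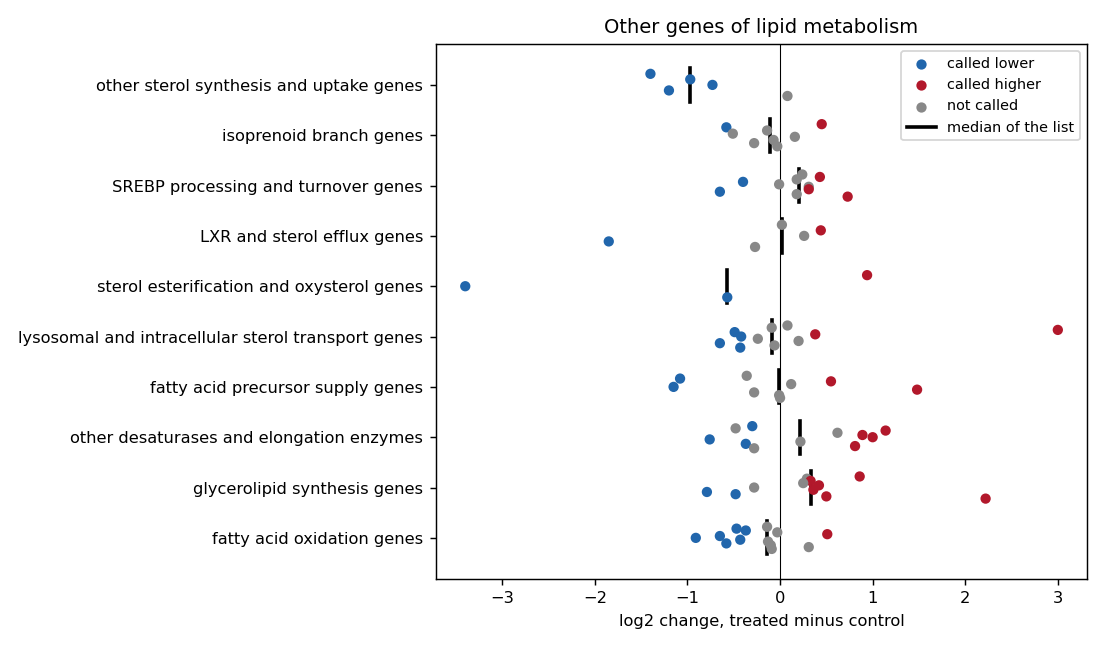
Log2 change (treated minus control) of 86 tested genes of lipid metabolism outside the 34, by list, with called genes in colour and the median of each list as a black bar. The list of other sterol synthesis genes lies to the left (median -0.97), that of glycerolipid synthesis to the right (median 0.33), and most others straddle 0.

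Markers of other cell types were set beside these values because skin explants can hold fat, epidermal and sebaceous cells, which make lipids. Adipocyte markers summed to 783 to 805 in treated cultures and 577 to 908 in controls over 10 of 12 genes. Cebpa averaged 38.1 in treated cultures, under the array median on each, and 118 in controls. Slc2a4 was called higher, but its control signals were uneven (18.1, 21.1 and 109.5), so no size is given for its change. Fabp4 was not called, with signals of 284, 282 and 279 in treated cultures, against 131, 143 and 303 in controls. Adipoq and Lep were too dim to be tested (means of 17.7 and 5.24 in treated cultures, 12.9 and 5.95 in controls). Keratinocyte markers summed to 812 to 1050 in treated cultures and 395 to 458 in controls over 11 of 12 genes. The p53 target Perp averaged 210 in treated cultures and 19.5 in controls, and the envelope protein Ivl averaged 179 in treated cultures and 3.90 in controls, with both under the median on every control array. The defining keratins Krt14 and Krt5 averaged 42.55 and 90.15 in treated cultures and 44.22 and 71.75 in controls. Sebocyte markers summed to 4008 to 4667 in treated cultures and 1269 to 1456 in controls over 5 of 8 genes, nearly all of it Plin2, which many cells express. Leukocyte markers summed to 889 to 1140 in treated cultures and 684 to 838 in controls over 10 of 11 genes. Cd68 alone of them was called, higher, with averages of 113 in treated cultures and 50.5 in controls. Endothelial markers summed to 623 to 731 in treated cultures and 509 to 564 in controls over 8 of 8. Eng (0.66) and Cdh5 were called higher and Tek lower. Cdh5 exceeded the array median on treated arrays alone, and Tek on control arrays alone. The part of these shifts in the changes of the lipid genes was not tested.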

How the data were processed

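Expression was measured in 6 cultures, 3 treated and 3 control, with 1 array each. The authors deposited signal intensities per probe set on a linear scale, made with MAS5 according to the submitters' processing notes. No version of MAS5 and no detection call was used here. The 2% trimmed means of the deposited signals were 149 to 209 on treated arrays and 179 to 224 on control arrays, so each array was scaled to 193.2. Values were transformed to log2(signal + 9.66), with a pseudocount of 0.05 of that mean, which understates changes of dim genes. After 64 control probe sets were left out, a probe set was tested if it exceeded its array's median on at least 3 arrays, which kept 23388 of 45037. Dim signals could not be told from background, and precision is limited by having 6 arrays.

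In limma 3.58.1 (R 4.3.3) a linear model with group as its sole term was fitted, with moderated variances that follow the signal level (lmFit, eBayes), two-sided tests and Benjamini-Hochberg adjustment over all tested probe sets. SEs and 95% confidence intervals come from that fit. Names came from the annotation of the platform, updated by Entrez identifier to GRCm38.p6, and only for probe sets that named 1 gene. A gene was represented by its brightest tested probe set. The procedure was run on simulated arrays in which few probe sets were changed. In these data 9040 were called, so that run does not check it at this scale. The labels say that each replicate was explanted separately. Alternatives covered scaling, pseudocount, filter, trend, replicate number as a block, each array left out, and the choice of probe set. Members, gene lists and motifs were chosen with earlier results of these data known. All 34 members were to be named, and of each list of other genes those with the smallest p; other genes were named after their values were seen. Some genes of the pathway are not reported here.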

Additional observations from a re-analysis of the deposited data

How the results depend on the processing

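Of the 33 genes, 23 kept their direction and call under all 15 alternatives. Leaving the deposited signals unscaled lowered the number of probe sets called to 5019, against 9040 with scaling; among other lipid genes 15 were then lower and 9 higher, against 27 and 21, and 0 sterol enzymes and 0 regulator or transport genes were higher. The median change of all genes was -0.08 in that setting. With the probe set of median change standing for a gene, 0 sterol enzymes and 0 regulator or transport genes were higher, since neither Sc5d nor Insig2 was called, and without an intensity trend 0 regulator or transport genes were higher. Leaving out 1 array, 0 to 1 regulator or transport genes were higher, 14 to 15 sterol enzymes and 6 to 7 fatty acid genes were lower, and 7635 to 8061 probe sets were called. With the replicate block 9541 probe sets were called, and of the 33 genes Scap (-0.34, adjusted p = 0.0195) and Acaca (-0.37, adjusted p = 0.0325) gained a call and 0 lost one. The labels share replicate numbers but do not say whether same-numbered arrays share an explant, so they were not treated as pairs. Deviations of same-numbered treated and control arrays from their group means correlated at 0.186, 0.172 and 0.072. Those of treated and control arrays of different numbers correlated at -0.149 to -0.0218. Between the groups, the deviations of each array thus correlated best with those of its own number, a hint from the data and not from the design. Deviations from a group mean cancel out within the group, so the correlations of same and different numbers are not independent of each other.

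Calls of small changes were the least stable. Hsd17b7 and Srebf1 lost theirs in 8 of 15 alternatives each (adjusted p up to 0.747 and 0.196), Insig2 in 7 (up to 0.635), Sc5d in 2 and Ebp in 1, unscaled (adjusted p = 0.116). Npc1, Acly and Fasn, none of them called, changed sign. Npc1 changed by 0.03 after quantile normalization, and by -0.07 to 0.03 with 1 array left out. With 1 array left out Acly changed by -0.05 to 0.03 and Fasn by -0.09 to 0.14, and Fasn changed by -0.04 unscaled. The causes were not tested.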
